A study of Aquarana catesbeiana with 18 samples.

Results

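The difference between albino and wild-type American bullfrogs (Aquarana catesbeiana) was compared between eyes and liver. The members are the 12 eye and liver libraries among the 18 libraries of the study, chosen by tissue label: 3 from wild-type eyes, 3 from albino eyes, 3 from wild-type liver and 3 from albino liver. The labels give genotype, tissue and replicate number, and they name no allele, treatment, age or sex for these groups. Whether replicates are separate animals is not stated, so p-values measure only the spread between these libraries, which may be technical. Total RNA was extracted with TRIzol and sequenced, and the deposited table gives whole read counts for 24636 genes. For each gene the albino minus wild-type difference in eyes was set against the same difference in liver, and the gap between them is called the interaction. A positive interaction means that the albino difference was more positive in eyes than in liver.

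Albinism is the loss of melanin, the dark pigment made by tyrosinase and related enzymes inside melanosomes. In the eye, melanin is carried by the pigment epithelium behind the photoreceptors and by melanocytes of the uvea. The liver of frogs also holds pigmented macrophages, while its bulk is hepatocytes, which make plasma proteins, store glycogen and handle lipids and bile acids. The 2 organs thus differ in their pigmented cells and in nearly all of their other cell types.

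Library totals were 34.3 to 36.4 M counts (M, 1000000) in eyes and 38.3 to 39.2 M counts in liver. The tissue labels were borne out by defining markers. GNAT1, the transducin subunit of rods, had at least 4294.15 CPM (counts in every 1000000 counts of the library total) in each eye library and at most 0.1034 in liver, while APOB, a lipoprotein of hepatocytes, had at least 2549.11 in liver and at most 0.0583 in eyes. Lens transcripts differed between the eye groups. Genes described as alpha, beta or gamma crystallins, the bulk proteins of the lens, took 21.2%, 34.8% and 24.3% of counts in wild-type eyes but 0.267%, 0.282% and 7.46% in albino eyes 1, 2 and 3. Of the 67 crystallin genes, 39, 35 and 22 were at 0 in those 3 albino libraries and none in wild-type eyes. CRYAB made up most of the crystallin counts in albino eyes 1 and 2 (2615.44 of 2674.92 CPM and 2783.9 of 2817.73 CPM). It stood at 3224.59 to 6017.58 CPM in wild-type eyes and 8053.89 CPM in albino eyes 3. CRYAA stood at 10.8, 1.65 and 14582.8 CPM in albino eyes 1, 2 and 3, and CRYBB1 at 1.98, 1.41 and 1855.93 CPM. In wild-type eyes CRYAA had at least 14505.7 CPM and CRYBB1 at least 13201.8 CPM. In tissue libraries, fewer cells of a type and less RNA per cell cannot be told apart. Muscle transcripts also took a larger share of library totals in albino eyes. The 28 skeletal muscle genes summed to 2556.08 to 7819.64 CPM in wild-type eyes and 8408.35 to 16760.6 CPM in albino eyes. All liver libraries lay at 40.1 to 78.5 CPM. Crystallin counts are part of those totals, so the sums depend on the crystallin shares. Medians of the muscle list per library, as log2 deviations from the mean of the tissue, were -0.640, -0.999 and 0.555 in wild-type eyes. In albino eyes they were -0.183, 0.554 and 0.829, so the groups overlapped by that measure. The erythrocyte markers summed to 3840.88 to 7098.03 CPM in wild-type liver and 6480.64 to 12901.4 CPM in albino liver, ranges that overlapped. Lymphocyte markers summed to 290 to 441 CPM in wild-type liver and 164 to 268 CPM in albino liver, without overlap. Their per-library medians did overlap, as albino liver 1 (0.185) lay above wild-type liver 3 (0.152). Shares of retinal transcripts in library totals also differed between the eye groups without overlap. Phototransduction genes took 3.06% to 4.72% of counts in wild-type and 5.65% to 8.02% in albino eyes. Pigment epithelium and visual cycle genes took 0.745% to 1.01% and 1.32% to 1.64%. Other retinal neuron and glia genes took 0.566% to 0.757% and 0.813% to 0.936%. These shares, too, depend on the crystallin counts. Per-library medians did not overlap for phototransduction (-0.245 to -0.129 against 0.020 to 0.416) or pigment epithelium genes (-0.306 to -0.238 against 0.116 to 0.425). Those of the neuron and glia list overlapped, at 0.003 to 0.167 in wild-type and -0.161 to 0.029 in albino eyes. Every value for eyes below stands beside these shifts in lens, muscle and retinal transcripts. In liver the pigment epithelium and visual cycle list summed to 9496.89 to 11317.3 CPM in wild-type and 3564.41 to 4997.29 CPM in albino. Its per-library medians overlapped, at -0.409 to 0.096 in wild-type and -0.284 to -0.065 in albino liver. RPE65 had at most 0.1036 CPM in any liver library, and RBP4 and TTR were also set down as hepatocyte markers. Every value for liver stands beside the shifts in erythrocyte and lymphocyte transcripts and in the sum of that list. The crystallin share, mostly CRYAB in albino eyes 1 and 2, entered 1 fit as a covariate, given below. The part of the other shifts was not tested gene by gene.

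The genotype difference differed between eyes and liver for 654 of 19128 tested genes, which is 3.42% (edgeR's quasi-likelihood test with Benjamini-Hochberg adjustment over all tested genes, adjusted p under 0.05, hereafter "called"). The interaction was positive for 251 genes (1.31%) and negative for 403 (2.11%). Of these 654, 344 had a called genotype difference in liver and none called in eyes, with 191 higher and 153 lower in albino liver. Another 217 had a called difference in eyes and none called in liver, with 61 higher and 156 lower in albino eyes. The opposite pattern, called in both tissues with opposite signs, held for 37 genes. Another 10 were called in both tissues in the same direction with unequal size, and 46 were called in neither tissue by itself. Within each tissue, eyes had 1309 called genes (6.84%), 510 higher (2.67%) and 799 lower (4.18%) in albino. Liver had 1597 (8.35%), 886 higher (4.63%) and 711 lower (3.72%). Of the 246 genes called in both tissues, 209 differed in the same direction. The median size of the interaction over the 654 genes was 2.05 on the log2 scale, and the median standard error (SE, the size of a fitted log2 difference divided by the square root of its F statistic) over all tested genes was 0.47.

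**Figure D1:**
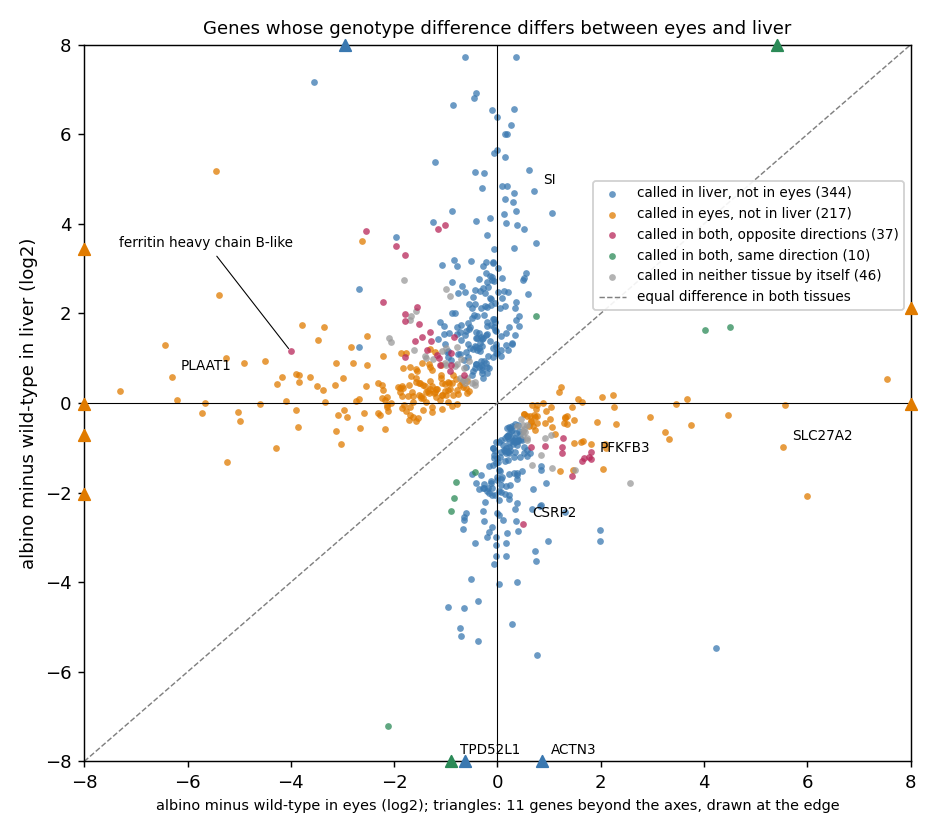
Each point is 1 of the 654 genes with a called interaction, placed by its log2 difference of albino minus wild-type in eyes (x axis) and in liver (y axis), with 11 genes beyond 8 log2 units drawn as triangles at the edge. Of the points, 344 were called in liver alone and 217 in eyes alone, and the 37 genes called in opposite directions lie in the upper left and lower right. Genes called in 1 tissue also lie there: for 239 of the 654 the groups did not overlap in either tissue and stood in opposite order.

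The count rested on the scaling and on single libraries. With library totals in place of TMM factors, the median interaction of all genes moved from -0.05 to 0.50, and 87.1% of the called genes were positive, against 38.4% with TMM. With totals taken after removing the crystallin genes, 590 genes were called and 53.4% of them were positive. The count fell to 270 without wild-type liver 2, 332 without wild-type liver 3, 283 without albino eyes 1, 317 without albino eyes 2, 346 without wild-type eyes 2, 329 without wild-type eyes 3 and 411 without albino liver 3. With the log2 crystallin share of the eye libraries as a covariate, 22 genes were called. All 654 genes kept their sign in that fit and 566 of them had an unadjusted p under 0.05, while the median SE over all genes rose to 0.70. Of the 116 genes named for a called interaction, 101 lost the call in that fit. The median size of the interaction over the 654 genes was 2.05 without and 1.86 with the covariate. Crystallin shares did not overlap between the genotypes, so lens content and genotype in eyes cannot be told apart. For that reason a call kept or lost with the covariate, here and below, does not show whether a gene depends on lens content.

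The 37 genes called in opposite directions were 0.193% of the tested genes. Of these, 12 were higher in albino eyes and lower in albino liver, and 25 were lower in albino eyes and higher in albino liver. The sign pair held for all 37 in every alternative fit of both tissues that tested them. The genes were selected by these same libraries, so their signs had little room to turn. By a wider count, with no threshold on p, the 3 albino and 3 wild-type libraries did not overlap in either tissue and stood in opposite order for 425 genes (2.22%), of which 239 had a called interaction. By the same measure 1444 genes (7.55%) stood in the same order in eyes and liver, so opposite order was the less frequent case. Taken singly, eyes separated the genotypes at 35.0% of the genes and liver at 24.3%. How many genes would reach opposite order by chance was not tested. The count of 37 fell to 10 without wild-type liver 2, 17 without wild-type liver 3, 19 without wild-type eyes 2, 24 without wild-type eyes 3, 17 without albino eyes 1, 14 without albino eyes 2, and 22 without albino liver 2 or 3. With the crystallin covariate it was 2.

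Genes higher in albino eyes and lower in albino liver included the metabolic enzymes PFKFB3, PFKFB1 and SMOX. PFKFB3, which makes the allosteric activator of glycolysis fructose 2,6-bisphosphate, stood at 125, 110 and 76.7 CPM in wild-type eyes and 357, 446 and 282 CPM in albino eyes. In liver it stood at 137, 106 and 106 CPM in wild-type and 59.6, 41.6 and 45.1 CPM in albino. The groups did not overlap in either tissue, with log2 differences of 1.80 ± 0.24 (SE, n = 3 libraries per group here and below) in eyes and -1.25 ± 0.24 in liver, and an interaction of 3.06 ± 0.34 (adjusted p = 0.000898). PFKFB1, the liver form of the same enzyme, moved the same way: 15.0 to 21.7 CPM in wild-type and 26.8 to 33.7 CPM in albino eyes, but 181 to 219 CPM in wild-type and 87.7 to 118 CPM in albino liver (interaction 1.63 ± 0.25, adjusted p = 0.00602). SMOX, the spermine oxidase, which releases hydrogen peroxide as it turns spermine into spermidine, had 28.0, 30.5 and 26.3 CPM in wild-type eyes and 69.2, 72.8 and 62.6 CPM in albino eyes. In liver SMOX had 11.2, 12.4 and 11.7 CPM in wild-type against 8.50, 5.25 and 6.85 CPM in albino, so all 3 albino libraries were below all 3 wild-type ones. Its interaction was 2.04 ± 0.23 (adjusted p = 0.00108). A gene described as sulfotransferase 1B1-like (LOC141148488), of a family that conjugates sulfate to phenols and thyroid hormones, rose by 1.44 ± 0.20 in eyes and stood at -1.63 ± 0.21 in liver. Its albino values, 19.2 to 22.6 CPM in eyes and 7.25 to 9.53 CPM in liver, changed places with the wild-type values of 7.11 to 8.10 CPM in eyes and 20.1 to 35.2 CPM in liver. A gene described as cytochrome P450 2C8-like (LOC141107723) had log2 differences of 1.24 ± 0.19 in eyes and -1.12 ± 0.19 in liver (interaction 2.36 ± 0.27, adjusted p = 0.00108). Both carry only locus numbers, and how reads were shared with similar copies is not given.

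CSRP2, a LIM-domain protein that binds the actin cytoskeleton, had the smallest adjusted p of the opposite genes (3.04e-05). It stood at 23.3, 21.7 and 22.5 CPM in wild-type eyes and 35.1, 32.5 and 27.9 CPM in albino eyes, a difference of 0.50 ± 0.13. In liver it stood at 5.65, 6.52 and 6.05 CPM in wild-type and at 1.01, 0.926 and 0.851 CPM in albino, a difference of -2.70 ± 0.16. The liver change was thus over 5 times the size of the eye change on the log2 scale. With the crystallin covariate CSRP2 kept its call (interaction 2.90, adjusted p = 0.00118), as did the sulfotransferase 1B1-like gene (2.88, adjusted p = 0.0242). PFKFB3 (2.51, adjusted p = 0.067), SMOX (1.88, adjusted p = 0.072) and the cytochrome P450 2C8-like gene (2.25, adjusted p = 0.067) did not pass in that fit. The other 5 genes of this direction, apart from the clock gene BMAL1 described below, were SIK2, a salt-inducible kinase, ERF, a repressor of ETS target genes, SAR1B, a GTPase of secretory vesicles, ACOT12, a thioesterase of acetyl-CoA, and the C11orf96 homolog. SAR1B and ACOT12 were liver genes: SAR1B reached at most 0.28 CPM and ACOT12 at most 2.28 CPM in any eye library, against at least 32.2 and 19.5 CPM in liver.

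Genes of the reverse direction, lower in albino eyes and higher in albino liver, included iron storage, growth factor signalling and matrix genes. The gene with the largest eye difference among them is described as ferritin heavy chain B-like (LOC141110980), of the family whose heavy chains oxidise iron for storage. It stood at 8.76, 10.2 and 11.6 CPM in wild-type eyes and 0.609, 0.563 and 0.730 CPM in albino eyes, and at 2.21, 3.43 and 3.11 CPM in wild-type liver and 8.16, 5.45 and 5.83 CPM in albino liver. The differences were -4.00 ± 0.26 in eyes and 1.15 ± 0.24 in liver, with an interaction of -5.15 ± 0.35 (adjusted p = 3.38e-05). It kept its call with the crystallin covariate (-4.82, adjusted p = 0.0128), whereas FOXO6, PDGFRA, CCN2 and LAMA1 lost theirs in that fit (adjusted p = 0.067, 0.167, 0.138 and 0.287). FOXO6, a forkhead factor of the insulin pathway, had 14.0, 11.0 and 14.6 CPM in wild-type eyes against 4.33, 5.00 and 5.01 CPM in albino eyes, and 1.09, 0.915 and 0.980 CPM in wild-type liver against 3.47, 2.16 and 2.68 CPM in albino liver. Its differences of -1.46 ± 0.20 and 1.48 ± 0.23 were close to mirror images. PDGFRA, the alpha receptor for platelet-derived growth factor and a marker of fibroblast lineages, fell by 0.84 on the log2 scale in eyes, from 14.7 to 21.2 CPM in wild-type to 8.57 to 12.2 CPM in albino. In liver it rose by 1.47 ± 0.20, from 9.81 to 11.7 CPM to 26.1 to 37.5 CPM. CCN2, a matrix-bound growth factor modulator, went from 141 to 194 CPM in wild-type to 82.2 to 94.5 CPM in albino eyes, and from 8.39 to 9.69 CPM to 13.3 to 19.5 CPM in liver (interaction -1.75 ± 0.24, adjusted p = 0.00328). LAMA1, a laminin chain of basement membranes, had an interaction of -3.27 ± 0.49 (adjusted p = 0.00537), from 16.0 to 35.6 CPM in wild-type and 5.88 to 13.0 CPM in albino eyes, and 1.83 to 2.52 CPM in wild-type and 6.28 to 9.40 CPM in albino liver.

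Opposite changes were also seen for GASK1B, a Golgi kinase-like protein (-1.78 ± 0.27 in eyes, 1.02 ± 0.26 in liver), and for a gene described as ectoderm-neural cortex protein 1-like, LOC141106018 (-0.92 ± 0.15 and 0.71 ± 0.15). The NADH-cytochrome b5 reductase 2 gene LOC141112957 differed by -1.13 ± 0.24 in eyes, where it lay at 1.29 to 4.50 CPM, and by 1.01 ± 0.22 in liver, where it lay at 35.8 to 110 CPM. NRTN, the neurotrophic factor neurturin, had 10.7 to 14.8 CPM in wild-type eyes and 1.92 to 4.36 CPM in albino eyes, but only 2 counts over the wild-type liver libraries and 21 over the albino ones, which is 12.9 times as high by counts (95% interval from counting 3.14 to 113). Intervals of this kind cover counting error only. Low liver levels also underlie CPLX2, the synaptic protein complexin 2 (1 count over wild-type liver, 16 over albino liver), and HAPLN1, a link protein of hyaluronan matrix (3 and 26 counts). At higher levels, HEBP2, a heme-binding protein, had 61.0 to 148 CPM in wild-type and 29.0 to 42.1 CPM in albino eyes, and 90.6 to 94.4 CPM in wild-type and 203 to 223 CPM in albino liver (interaction -2.54 ± 0.41, adjusted p = 0.00751). GDA, guanine deaminase, ATAD2, AKAP12, NHS and the ion channel TRPV4 moved in the same pair of directions, with interactions between -3.78 (NHS) and -2.24 (ATAD2). In albino eyes 3, the albino library with the largest crystallin share, the level was the highest of the 3 albino eye libraries for 15 of the 25 genes of this direction (60.0%) and for 1 of the 12 of the other direction (8.33%), against 32.1% of all tested genes.

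**Figure D2:**
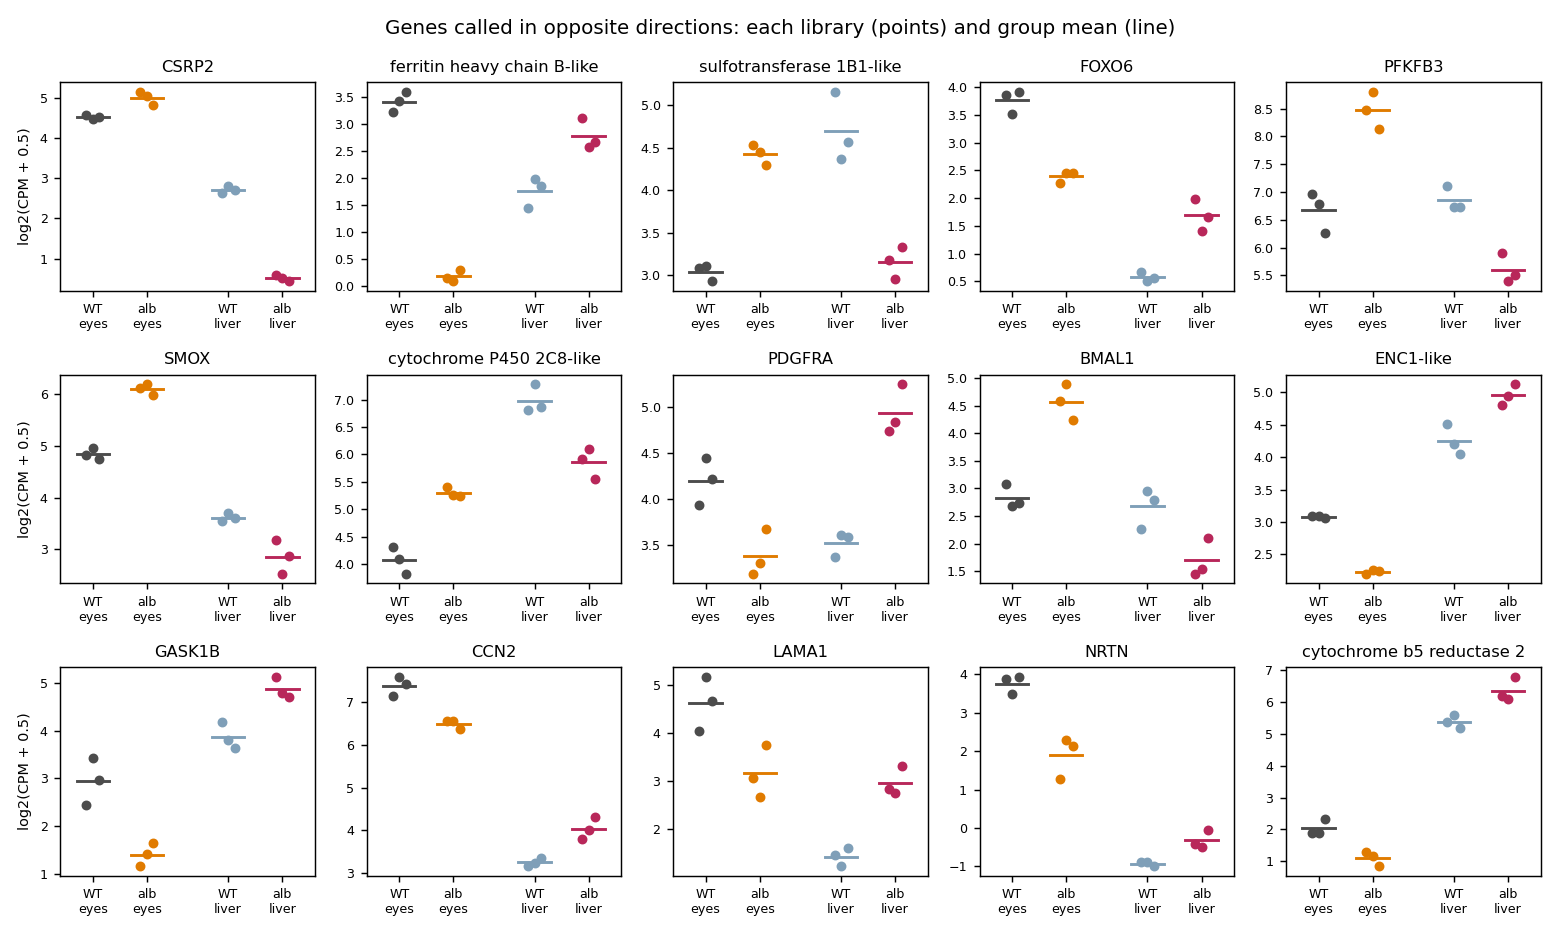
Per-library levels, as log2(CPM + 0.5), of the 15 opposite genes with the smallest interaction p (WT, wild-type; alb, albino; points, libraries; line, mean of 3). In every panel the albino points lie on opposite sides of the wild-type points in eyes and in liver, without overlap.

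Several genes with a small interaction p differed mainly in liver. ACTN3, the alpha-actinin of fast muscle fibres, stood at 25.8, 23.6 and 24.7 CPM in wild-type liver, while the albino liver libraries held 3 counts between them, so wild-type liver was 548 times as high by counts (95% interval from counting 187 to 2661). In eyes ACTN3 was at 59.9 to 130 CPM in wild-type and 112 to 207 CPM in albino (0.86 ± 0.27, adjusted p = 0.0746). The muscle creatine kinase CKM was at or under 0.0778 CPM in every liver library. By library totals, the 28 skeletal muscle genes, ACTN3 among them, summed to 60.7 to 78.5 CPM in wild-type and 40.1 to 78.4 CPM in albino liver. The part of muscle transcripts in liver ACTN3 was not tested. TPD52L1, a coiled-coil protein of vesicle traffic, had 407 counts over wild-type liver and 1 over albino liver, a ratio of 333 (59.3 to 13166), and fell by 0.90 ± 0.22 in eyes. PRRT3, a membrane protein, went from 3.58 to 3.81 CPM in wild-type liver to 0.0514 to 0.127 CPM in albino liver, with eyes at -0.38 ± 0.18 (interaction 4.94 ± 0.36, adjusted p = 6.1e-05). MKNK1, a kinase that phosphorylates the cap-binding factor eIF4E, fell in liver from 47.2 to 52.7 CPM to 8.03 to 11.3 CPM and stood at 0.34 ± 0.20 in eyes (interaction 2.70 ± 0.28, adjusted p = 0.000587).

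Other genes were called higher in albino liver and were not called in eyes. SI, the disaccharidase sucrase-isomaltase of the gut brush border, stood at 7.45, 9.07 and 6.65 CPM in wild-type liver and at 231, 238 and 146 CPM in albino liver (4.73 ± 0.29), with 0.70 ± 0.26 in eyes and an interaction of -4.03 ± 0.37 (adjusted p = 0.000272). FAM163B, a membrane protein gene, was at 0.0374 to 0.152 CPM in wild-type liver and 3.11 to 5.79 CPM in albino liver, next to 48.9 to 62.7 CPM in all eye libraries. PTPRR, a receptor-type tyrosine phosphatase, rose in liver from 1.09 to 1.26 CPM to 9.66 to 15.0 CPM. In eyes PTPRR had 25.8 to 28.8 CPM in wild-type and 30.4 to 37.3 CPM in albino, without overlap (0.32 ± 0.17). MARCHF9, a membrane ubiquitin ligase, had 0 counts in wild-type liver and 43 over albino liver. Taking 3 counts as the floor for the summed wild-type libraries, albino liver was at least 17.5-fold higher. In eyes MARCHF9 was lower in albino without overlap, at 5.11 to 6.81 CPM against 9.31 to 9.72 CPM in wild-type (-0.62 ± 0.21, adjusted p = 0.107). LRAT, which esterifies retinol for storage and acts in both the visual cycle and the liver's vitamin A stores, was at 0.225 to 0.420 CPM in wild-type liver and 11.1 to 15.5 CPM in albino liver (5.21 ± 0.40). In eyes LRAT was at 0.132 to 0.375 CPM in all libraries, and its interaction was -4.59 ± 0.56 (adjusted p = 0.00166). P2RY6, a receptor for extracellular UDP, rose by 2.51 ± 0.22 in liver (interaction -2.86 ± 0.29, adjusted p = 0.000587). ACTN3, TPD52L1, PRRT3, MKNK1, FAM163B, PTPRR and MARCHF9 also passed with the crystallin covariate, while SI, P2RY6 and LRAT did not (adjusted p = 0.059, 0.09 and 0.14). The interactions of SI, P2RY6 and LRAT in that fit were -3.69, -2.47 and -4.41.

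Of the genes called in eyes and not in liver, several were nearly absent from albino eyes. PLAAT1, a phospholipase that in zebrafish takes part in clearing organelles from lens fibres, stood at 26.1, 62.9 and 36.0 CPM in wild-type eyes and 0.757, 0.422 and 0.398 CPM in albino eyes (-6.30 ± 0.45), with 0.57 ± 0.38 in liver. For PLAAT1, albino eyes 3, with 7.46% crystallin counts, stood close to albino eyes 2 (0.398 and 0.422 CPM). Lens content and genotype in eyes cannot be told apart here either. MFSD2B, an exporter of sphingosine 1-phosphate, went from 11.3 to 24.5 CPM to 1.14 to 1.38 CPM in eyes, with 0.61 ± 0.25 in liver (interaction -4.45 ± 0.37, adjusted p = 0.000107). A DNA exonuclease gene of the TREX2-like kind (LOC141108518) went from 44.9 to 80.2 CPM to 0.734 to 1.86 CPM in eyes and stood at -0.01 ± 0.35 in liver. Over the 156 called genes lower in albino eyes alone, albino eyes 3 was the highest albino library for 85 (54.5%), and for 11 of the 61 higher ones (18.0%), against 32.1% of all tested genes. In the other direction was SLC27A2, a fatty acid transporter and very long chain acyl-CoA synthetase of liver. It was at 0 to 0.103 CPM in wild-type eyes and 2.07 to 2.80 CPM in albino eyes (5.53 ± 0.54). In liver it was at 546 to 930 CPM in wild-type and 254 to 477 CPM in albino, without overlap (-0.98 ± 0.37, adjusted p = 0.128). The 27 hepatocyte markers summed to 183.75 to 248.423 CPM in wild-type eyes and 348.12 to 446.593 CPM in albino eyes, without overlap. These sums use library totals and so depend on the crystallin shares. By per-library medians of the list the groups overlapped, as wild-type eyes 2 (-0.065) lay above albino eyes 3 (-0.105). The part of hepatocyte transcripts in the SLC27A2 values in eyes was not tested. On that list, 3 members were called higher in albino eyes and none lower. F2 was called higher, at 0.438 to 2.65 CPM against 0 to 0.114 CPM, while APOB and FGB were at or under 0.0583 CPM in every eye library. A gene described as C-X-C chemokine receptor type 3-like (LOC141110029) had 3 counts over wild-type eyes and 1675 over albino eyes, a ratio of 468 (160 to 2271), and -0.01 ± 0.55 in liver. PLAAT1, MFSD2B, SLC27A2 and the chemokine receptor-like gene passed with the crystallin covariate, and the exonuclease gene did not (adjusted p = 0.067).

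The circadian clock is a feedback loop in which BMAL1 and CLOCK switch on the PER and CRY genes, whose products repress that pair, while ROR and NR1D receptors set BMAL1 levels. Of 24 tested clock genes, 8 had a called interaction (33.3%, beside 3.42% of all tested genes), 5 positive and 3 negative, and the list's median was 0.00. BMAL1 stood at 7.91, 5.95 and 6.14 CPM in wild-type eyes and 23.3, 29.0 and 18.3 CPM in albino eyes. In liver BMAL1 stood at 4.31, 7.28 and 6.44 CPM in wild-type and 2.24, 2.42 and 3.79 CPM in albino, so that it was higher in all albino eye libraries and lower in all albino liver libraries. The differences were 1.82 ± 0.26 and -1.09 ± 0.27 (interaction 2.91 ± 0.38, adjusted p = 0.0024). CRY1, a repressor, rose in eyes from 112 to 132 CPM to 255 to 366 CPM (1.32 ± 0.18) and stood at -0.33 ± 0.18 in liver (interaction 1.65 ± 0.25, adjusted p = 0.00629). PER1 and PER3, the partners of CRY1, fell in eyes instead. PER1 went from 56.5, 38.4 and 43.9 CPM to 18.2, 17.5 and 19.2 CPM (-1.34 ± 0.20), and PER3 from 69.9, 39.1 and 46.8 CPM to 25.0, 19.3 and 20.6 CPM (-1.26 ± 0.21). In liver PER1 and PER3 stood at 0.28 ± 0.21 and 0.39 ± 0.21, and the interactions were -1.62 ± 0.28 (adjusted p = 0.0118) and -1.65 ± 0.30 (adjusted p = 0.0137).

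In liver 6 clock members were called lower and 2 higher, BMAL1 among the lower ones. BHLHE41, a repressor of BMAL1 and CLOCK activity, fell by 1.53 on the log2 scale, from 77.7, 81.8 and 83.1 CPM to 28.1, 28.3 and 27.7 CPM, and fell by 0.44 in eyes, where it went from 35.4 to 39.1 CPM to 25.2 to 30.5 CPM (interaction 1.09 ± 0.16, adjusted p = 0.00537). The ROR-alpha A gene (LOC141131584), an activator of BMAL1, fell in liver from 2.06 to 3.93 CPM to 0.617 to 1.11 CPM and was level in eyes (0.03 ± 0.26). Its call was lost without albino eyes 2, wild-type liver 2 or wild-type liver 3 (adjusted p up to 0.0546). RORB, a retinal receptor of the same family, had 66.0 to 72.1 CPM in wild-type eyes and 18.2 to 40.3 CPM in albino eyes, with 1 count over wild-type liver and 15 over albino liver. The call of RORB was lost without wild-type liver 1, 2 or 3 or albino liver 3 (adjusted p up to 0.0877). CSNK1E, the casein kinase that marks PER proteins for decay, stood at 0.57 ± 0.13 in eyes and -0.28 ± 0.14 in liver, with a call kept in 5 of the 12 fits that left out 1 library (adjusted p up to 0.0816). The remaining 16 members had no called interaction, among them PER2 (-0.33), CLOCK (-0.88) and NR1D1 (1.30). None of the 8 passed with the crystallin covariate (BMAL1 2.32, adjusted p = 0.14). The sources used here give no time of day at which tissues were taken. PER1, PER3, RORB, CSNK1E and the ROR-alpha A gene were picked for description after their values were seen.

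**Figure D3:**
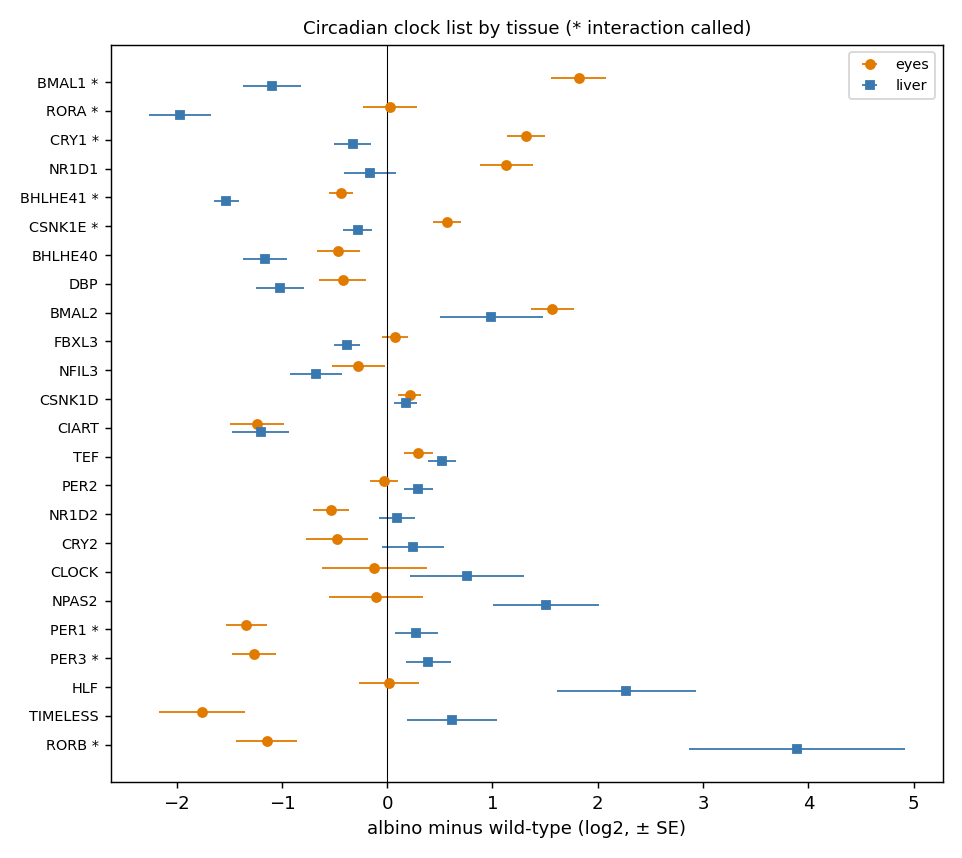
Log2 difference of albino minus wild-type for the 24 clock genes in eyes (circles) and liver (squares), with bars of 1 SE and stars for a called interaction, ordered by interaction. BMAL1 and CRY1 lie to the right in eyes and left of 0 in liver, PER1 and PER3 the reverse, and the liver value of RORB rests on 1 count in wild-type liver.

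Genes of the extracellular matrix, the collagens and linked proteins that fibroblasts lay down around cells, tended to be lower in albino eyes and higher in albino liver. Of 49 tested members, 40 had a negative interaction, beside 10182 of all 19128 tested genes. Called were 8 negative and 1 positive (18.4% in all, beside 3.42% of all tested genes). None of them kept the call with the crystallin covariate (COL6A3 adjusted p = 0.403). The list median was -1.05, with -0.48 in eyes and 0.54 in liver. All 3 chains of the collagen VI microfibril were called. COL6A3 stood at 112, 142 and 158 CPM in wild-type eyes and 58.4, 62.0 and 70.2 CPM in albino eyes, and at 40.1, 46.6 and 42.3 CPM in wild-type liver and 46.2, 96.0 and 91.5 CPM in albino liver. The groups did not overlap in eyes, while in liver albino liver 1 lay just below wild-type liver 2 (-1.11 ± 0.24 and 0.86 ± 0.24, interaction -1.96 ± 0.34, adjusted p = 0.0112). COL6A1 and COL6A2 had interactions of -2.11 ± 0.38 and -2.33 ± 0.41 (adjusted p = 0.013 and 0.0119), with called rises of 1.14 ± 0.27 and 1.54 ± 0.29 in liver. Outside the list, COL6A6 and the alpha-4(VI)-like gene LOC141144549, had interactions of -2.25 ± 0.29 and -3.62 ± 0.59 (adjusted p = 0.00214 and 0.00848).

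FBN2, a fibrillin of elastic microfibrils, rose in liver from 2.10 to 3.89 CPM to 5.86 to 7.57 CPM (1.27 ± 0.22) and stood at -0.44 ± 0.20 in eyes (interaction -1.72 ± 0.30, adjusted p = 0.0112). LOX, the enzyme that cross-links collagen, rose in liver from 1.39 to 3.39 CPM to 8.69 to 13.1 CPM (1.96 ± 0.33), with 33.9 to 64.3 CPM over all eye libraries. The LOX call was kept in 7 of the 12 fits that left out 1 library and was lost without wild-type eyes 2 or 3, albino eyes 1 or 2 or albino liver 3 (adjusted p up to 0.0648). COL5A2 was lost without wild-type eyes 2 or 3, albino eyes 1 or 2 or wild-type liver 3 (interaction -1.73 ± 0.34, adjusted p up to 0.0612), and COL3A1 and COL8A1 were called in 2 and 4 of those 12 fits. COL9A2, a cartilage and vitreous collagen, was the positive exception: it was at 1.05 to 2.90 CPM in wild-type liver and 0 to 0.17 CPM in albino liver, and at 214 to 716 CPM in eyes, with a call in 3 of the 12 fits. In eyes the list was called lower for 3 members and higher for 1, and in liver higher for 13 and lower for 2. Per-library medians of the list, as deviations from the mean of the tissue, were -0.15, 0.41 and 0.59 in wild-type and -0.44, -0.17 and -0.04 in albino eyes, so wild-type eyes 1 lay within the albino range. In liver they were -0.30, -0.08 and -0.32 in wild-type and -0.20, 0.47 and 0.48 in albino, so albino liver 1 lay within the wild-type range. The list median was -0.67 without wild-type eyes 3, -0.58 with library totals, which raised all genes by a median of 0.56 (from -0.05 to 0.50), and -0.62 with the crystallin covariate.

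The mevalonate pathway makes isoprenoids and cholesterol, under control of INSIG1 and SREBP factors. Of 24 tested genes of cholesterol synthesis and uptake, 5 were called, all negative (20.8%, beside 3.42% of all tested genes). None of the 5 kept the call with the crystallin covariate (FDPS adjusted p = 0.21). A negative interaction was found for 21 of the 24, beside 10182 of all 19128 tested genes. The list median was -0.61, with -0.68 in eyes and 0.17 in liver. FDPS, which makes farnesyl diphosphate, stood at 69.2, 87.0 and 89.9 CPM in wild-type eyes and 42.1, 43.0 and 38.2 CPM in albino eyes and did not overlap, with all liver libraries between 14.2 and 17.9 CPM (interaction -1.17 ± 0.19, adjusted p = 0.00735). IDI1, the step before it, fell from 62.8, 95.4 and 160 CPM to 28.5, 40.4 and 34.1 CPM in eyes, with 0.15 ± 0.28 in liver, and its call was kept in 4 of the 12 fits that left out 1 library (adjusted p up to 0.0886). MVK, mevalonate kinase, fell in eyes by 1.65 on the log2 scale, with a call in 3 of the 12 fits. MSMO1, a sterol C4-demethylase, was called in opposite directions: 48.8, 73.6 and 104 CPM in wild-type eyes and 29.2, 22.9 and 24.5 CPM in albino eyes, but 0.824, 0.724 and 0.840 CPM in wild-type liver and 1.31, 2.83 and 6.42 CPM in albino liver. Its interaction was -3.70 ± 0.66 (adjusted p = 0.0139). INSIG1, which holds SREBP factors in the endoplasmic reticulum and is itself their target, rose in liver from 17.2, 16.7 and 14.9 CPM to 136, 54.6 and 128 CPM (2.71 ± 0.39) and stood at -0.20 ± 0.37 in eyes (interaction -2.90 ± 0.53, adjusted p = 0.0153). In eyes 8 list members were called lower and none higher, among them SQLE, squalene epoxidase (-1.34, adjusted p = 0.036). The list median was -0.39 without wild-type eyes 3 and -0.03 with library totals, a scale on which the median of all genes was 0.50. Albino eyes 3 was the highest albino eye library for 3 of the 24 cholesterol genes (12.5%) and 29 of the 49 matrix genes (59.2%). Over all tested genes this share was 32.1%. With the crystallin covariate the list median was -0.81 for the cholesterol genes and -0.62 for the matrix genes. Lens content and genotype in eyes cannot be told apart in either list.

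The list of cell cycle genes had the second lowest median of the lists. All 44 tested members had a negative interaction, beside 10182 of all 19128 tested genes. Of the 44, 5 were called (11.4%, beside 3.42% of all tested genes). None of the 5 kept the call with the crystallin covariate (KIF11 adjusted p = 0.093, MCM3 adjusted p = 0.192). The list median was -1.75, made of -1.63 in eyes and 0.12 in liver. In eyes 12 members were called lower and none higher. KIF11, the mitotic kinesin that separates spindle poles, stood at 6.27, 4.45 and 5.01 CPM in wild-type eyes and 0.921, 0.734 and 1.03 CPM in albino eyes (-2.55 ± 0.23). In liver KIF11 stood at 7.90, 7.01 and 6.82 CPM in wild-type and 11.5, 9.00 and 7.96 CPM in albino (0.39 ± 0.21), and the interaction was -2.94 ± 0.31 (adjusted p = 0.000587). MCM3, part of the replicative helicase, went from 9.33 to 12.6 CPM to 2.67 to 3.67 CPM in eyes and stood at 0.79 ± 0.29 in liver (interaction -2.62 ± 0.41, adjusted p = 0.00677). RRM2, TPX2 and TOP2A, of nucleotide supply, spindle assembly and chromosome untangling, were called in 4, 3 and 4 of the 12 fits that left out 1 library. Per-library medians of the list did not overlap in eyes (0.98, 0.79 and 0.54 in wild-type, -0.64, -0.95 and -0.59 in albino). In liver they were 0.48, -0.15 and -0.23 in wild-type and 1.11, -0.78 and -0.36 in albino, with albino liver 1 far above the other albino libraries. Without albino liver 1 the list median was -0.82. For 21 of the 44 members (47.7%) albino eyes 3 was the highest albino eye library, against 32.1% of all tested genes. The authors' wider cell cycle term was less uniform. Of its 147 tested genes, 2 were called positive and 2 negative (2.72%), and 96 had a negative and 51 a positive interaction. The median of the term was -0.29, and in eyes 5 of its genes were called higher and 16 lower. Their DNA replication term had 1 of 42 genes called and a median of -0.41.

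Interferon genes moved in the same sense, with all 17 tested members negative, beside 10182 of all 19128 tested genes. Their median was -1.35 (-1.01 in eyes, 0.18 in liver), but wild-type eyes 1 carried most of it. The list median of that library was 1.22 against 0.17 and -0.18 in the other wild-type eye libraries. Without that library the interaction median was -0.29. The 1 called member was IRF7, the factor that drives type I interferon genes. IRF7 stood at 20.4, 22.7 and 25.0 CPM in wild-type eyes and 1.10, 1.06 and 1.84 CPM in albino eyes (-4.09 ± 0.31), and between 6.59 and 14.8 CPM in liver with no called difference (0.05 ± 0.28). Its interaction was -4.13 ± 0.41 (adjusted p = 0.000439) and stayed called without any single library, wild-type eyes 1 included (adjusted p up to 0.00293), but not with the crystallin covariate (-3.39, adjusted p = 0.067).

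**Figure D4:**
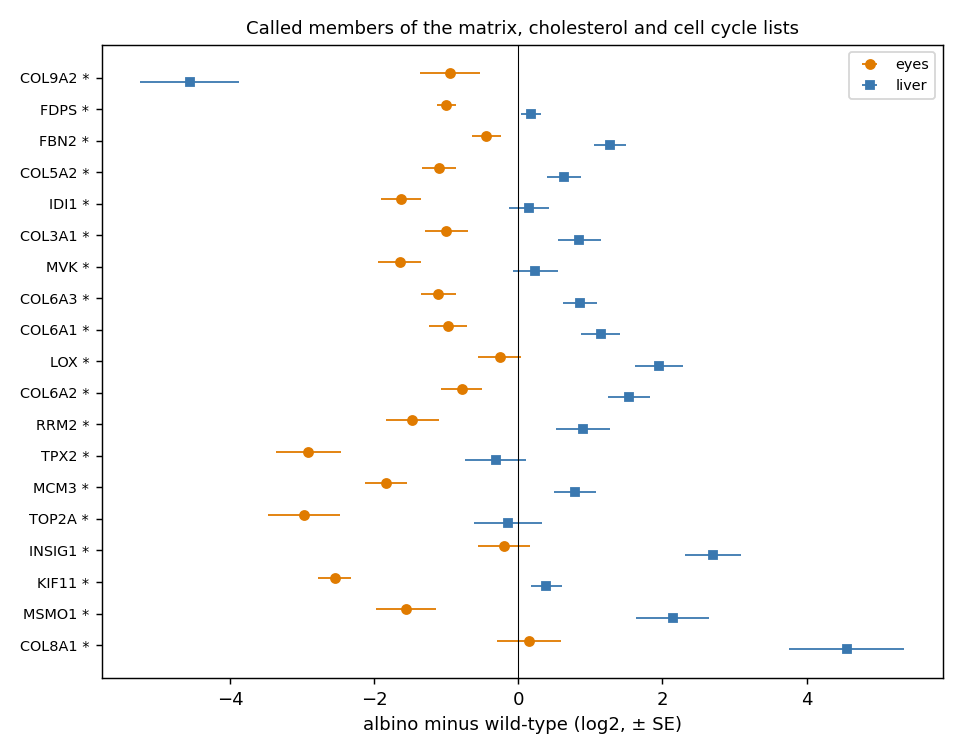
Log2 difference of albino minus wild-type in eyes (circles) and liver (squares), with bars of 1 SE, for the 19 members of the matrix, cholesterol and cell cycle lists with a called interaction, ordered by interaction. Eye values lie at or left of 0 for all but COL8A1, and liver values lie right of 0 for all but COL9A2, TPX2 and TOP2A.

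Genes of sugar, amino acid and lipid handling were called in both directions. Of 54 tested genes of glucose and amino acid metabolism, 4 were called positive and 1 negative (9.26%, median 0.11). Of 36 of lipid and bile acid metabolism, also 4 and 1 were called (13.9%, median 0.15). Over all tested genes 3.42% were called. No called member of either list kept its call with the crystallin covariate. Glutamine synthetase (LOC141108265), which binds ammonia in liver cells around the central vein and clears glutamate in retinal glia, fell in liver from 190, 325 and 316 CPM to 51.7, 27.4 and 32.7 CPM (-2.90 ± 0.27). In eyes it lay between 77.7 and 105 CPM in all libraries (0.18 ± 0.25), and the interaction was 3.07 ± 0.36 (adjusted p = 0.0013). PHGDH, the first enzyme of serine synthesis, rose in liver from 2.80 to 4.42 CPM to 9.93 to 12.3 CPM (1.71 ± 0.21) and stood at 0.22 ± 0.19 in eyes, with the call lost without wild-type liver 2 (adjusted p = 0.0536). GAPDH, the glycolytic dehydrogenase often used as a reference gene, rose in eyes from 347 to 382 CPM to 683 to 703 CPM (0.93 ± 0.18) and stood at -0.46 ± 0.18 in liver, where albino libraries held 1473 to 1898 CPM and wild-type ones 1964 to 2626 CPM; its interaction was 1.38 ± 0.25 (adjusted p = 0.0148; 0.0502 without wild-type liver 2). LPIN2, a phosphatidate phosphatase of triglyceride synthesis, fell in liver from 143, 145 and 134 CPM to 72.9, 81.7 and 67.1 CPM (-0.93 ± 0.13) with 0.38 ± 0.13 in eyes (interaction 1.31 ± 0.18, adjusted p = 0.00302). ACAA1, the thiolase of peroxisomal fatty acid oxidation, fell in liver from 241 to 248 CPM to 94.4 to 137 CPM; its call was lost without wild-type eyes 3, albino eyes 1 or albino eyes 2 (adjusted p up to 0.0531). PPARG, the adipogenic nuclear receptor, differed by -1.92 ± 0.39 in liver, and APOE, a lipoprotein ligand, by -3.59 ± 0.55, with interactions called in 4 and 7 of the 12 fits that left out 1 library.

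Of 30 tested genes of melanin synthesis and melanosomes, 1 was called positive and 1 negative (6.67%, beside 3.42% of all tested genes; median 0.00). Of 17 tested pigment cell regulators, also 1 and 1 were called (11.8%; median 0.33, and -0.27 without wild-type liver 1). TYR, DCT, PMEL, OCA2 and MLANA had no called interaction, and they were at or near 0 in liver, so the contrast could not be judged there: TYR had 0 counts in all 6 liver libraries, against 28.2 to 45.4 CPM in wild-type and 38.0 to 42.1 CPM in albino eyes. RAB32, which sorts cargo to melanosomes and lysosomes, fell in liver from 33.7, 37.3 and 36.0 CPM to 25.3, 20.9 and 17.8 CPM and stood at 0.19 ± 0.14 in eyes (interaction 0.93 ± 0.20, adjusted p = 0.0305), a call kept in 3 of the 12 fits that left out 1 library. MITF, the master regulator of melanocytes, which also acts in other cells, fell in eyes from 8.83, 13.7 and 13.4 CPM to 5.41, 5.55 and 7.46 CPM (-0.96 ± 0.22) with 0.29 ± 0.22 in liver, a call kept in 2 of the 12 fits (adjusted p = 0.0468, up to 0.135). EDNRB, the endothelin receptor of melanoblasts and liver vessels, fell in liver from 81.4 to 107 CPM to 43.5 to 51.1 CPM and was level in eyes, called in 3 of the 12 fits. Of 44 tested antioxidant genes, 3 were called (6.82%). None of the called genes of these melanin, pigment regulator and antioxidant lists kept the call with the crystallin covariate. SRXN1, which restores oxidised peroxiredoxins, fell in liver from 22.5 to 32.6 CPM to 10.5 to 15.5 CPM and stood at 0.51 ± 0.22 in eyes (interaction 1.62 ± 0.31, adjusted p = 0.0169; 0.0536 without wild-type liver 2). GPX1 fell in eyes from 152 to 214 CPM to 75.5 to 93.8 CPM and stood at 0.86 ± 0.29 in liver, called in 5 of the 12 fits, and MSRB2 fell in liver by 1.93 on the log2 scale, called in 4. SOD1 (0.45 ± 0.26), SOD2 (LOC141145813, 0.42 ± 0.33), the abundant catalase gene (LOC141111968, 0.20 ± 0.26), NFE2L2 (-0.09 ± 0.27), HMOX1 (0.49 ± 0.33), CYBA (0.93 ± 0.31) and CYBB (0.47 ± 0.36) had no called interaction.

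The 49 tested genes of oxidative phosphorylation and the 79 cytosolic ribosomal proteins had 0 called members by edgeR, with 1 gene in each list at an unadjusted p under 0.05, and 0 and 1 called by DESeq2. Both lists were above 0 in each tissue (medians of 0.38 and 0.49 in eyes, 0.30 and 0.36 in liver). Of 13 tested genes of glutathione transfer and xenobiotic handling, 1 was called positive and 2 negative (23.1%, beside 3.42% of all tested genes). Their median was 0.29. AHR, the dioxin receptor and a member of that list, rose in liver from 19.9 to 35.1 CPM to 52.1 to 62.0 CPM (1.16 ± 0.19) and stood at -0.34 ± 0.18 in eyes (interaction -1.50 ± 0.26, adjusted p = 0.0114). GADD45G, a growth arrest gene, stood at 24.1, 30.0 and 35.1 CPM in wild-type and 140, 110 and 61.8 CPM in albino eyes, with -0.92 ± 0.32 in liver (interaction 2.72 ± 0.45, adjusted p = 0.00919). PDE6C, the cone phosphodiesterase, fell in liver from 39.8 to 61.3 CPM to 6.17 to 11.9 CPM while eyes stood at -0.65 ± 0.26 (interaction 1.96 ± 0.37, adjusted p = 0.0161), and the other members of the phototransduction list had no called interaction. The 13 tested oxidases that make reactive oxygen had 0 called members by edgeR (5 at an unadjusted p under 0.05, 1 called by DESeq2). Of them, 11 had a positive interaction (median 0.67), beside 8946 of all 19128 tested genes. The lens list had the lowest median, -3.08, with 0 of 20 members called by edgeR (4 at an unadjusted p under 0.05, 2 called by DESeq2), and its value moved to -12.25 without albino eyes 3. Erythrocyte markers had a median of -0.70, with 0.83 in liver, and lymphocyte markers one of -0.54; with library totals these were -0.12 and -0.02. The erythrocyte median was -0.40 without albino liver 3, and the lymphocyte median -0.07 without wild-type eyes 1.

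**Figure D5:**
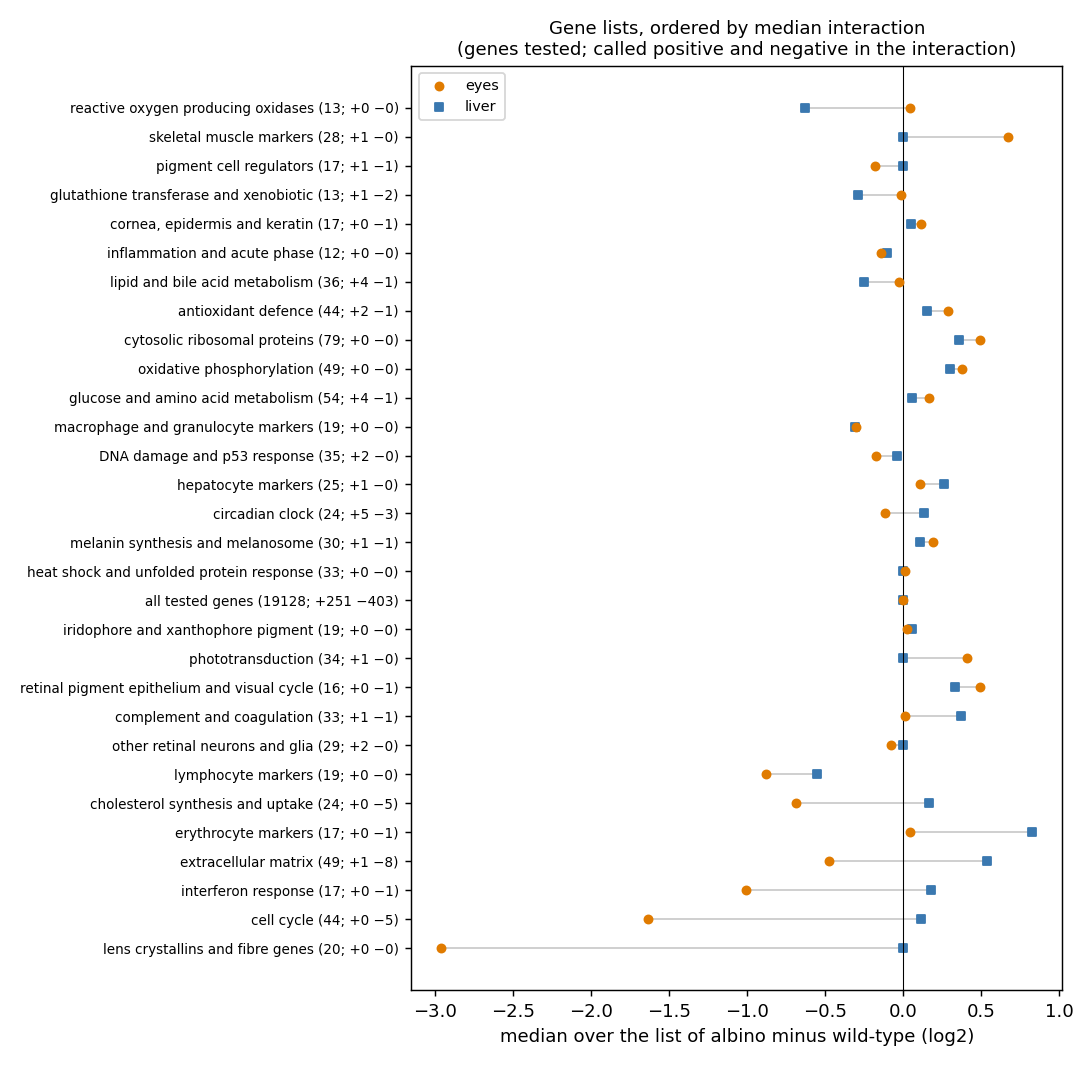
Median log2 difference of albino minus wild-type over each gene list in eyes (circles) and liver (squares), ordered by median interaction, with the number of genes tested and called in each direction. The lens, cell cycle, interferon, matrix and cholesterol lists lie left of 0 in eyes, while the matrix and erythrocyte lists lie right of 0 in liver.

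The authors' pathway column gave 168 terms with at least 10 tested genes. The highest shares of called genes were in terpenoid backbone biosynthesis (5 of 21, 23.8%), alpha-linolenic acid metabolism (5 of 24, 20.8%) and ganglio-series glycosphingolipids (3 of 17, 17.6%), beside 3.42% of all tested genes. The terpenoid calls were 2 positive and 3 negative, and the median of that term was 0.06. Steroid biosynthesis had 1 positive and 1 negative call among 22 genes and a median of -0.38. ECM-receptor interaction had 10 of 81 genes called, 9 of them negative. Its median was the lowest of all terms (-0.71, with -0.26 in eyes and 0.35 in liver). Alpha-linolenic acid metabolism had the second lowest median (-0.66), with a negative interaction for 15 of its 24 tested genes. Its called genes were 4 positive and 1 negative. The highest medians were those of nitrogen metabolism (0.95) and biosynthesis of unsaturated fatty acids (0.60). In the latter, 4 of 36 genes were called, all positive. The acyl-CoA desaturase-like gene LOC141106129, of the family that puts the first double bond into fatty acids, fell in liver from 677, 743 and 658 CPM to 30.3, 8.18 and 17.7 CPM (-5.21 ± 0.43). In eyes it stood at 268, 372 and 384 CPM in wild-type and 175, 202 and 254 CPM in albino (-0.70 ± 0.36), and the interaction of 4.51 ± 0.53 (adjusted p = 0.0013) also passed with the crystallin covariate (4.98, adjusted p = 0.0213). The fatty acid desaturase 2-like gene LOC141112132 fell in liver from 104 to 142 CPM to 13.9 to 20.7 CPM and stood at -0.17 ± 0.24 in eyes (interaction 2.71 ± 0.34, adjusted p = 0.00197). The phospholipase A2-like gene LOC141101772, counted under alpha-linolenic acid, ether lipid and glycerophospholipid metabolism, fell in liver from 13.0 to 24.9 CPM to 0.463 to 1.23 CPM (interaction 3.92 ± 0.50, adjusted p = 0.00222). LOC141112132 and LOC141101772 lost their calls with the crystallin covariate (adjusted p = 0.071 and 0.093).

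Among ganglioside genes, ST8SIA1, which makes the ganglioside GD3, was at 0.0749 to 0.14 CPM in wild-type liver and 2.42 to 10.1 CPM in albino liver, with 15.5 to 20.1 CPM over all eye libraries (interaction -5.85 ± 0.67, adjusted p = 0.00111). ST3GAL2, another sialyltransferase, stood at 0.73 ± 0.17 in eyes and -0.59 ± 0.17 in liver (interaction 1.32 ± 0.24, adjusted p = 0.0137). A pair of cystathionine gamma-lyase-like genes, of the family that makes cysteine and hydrogen sulfide, is listed under selenocompound and under glycine, serine and threonine metabolism. The more abundant one, LOC141103771, had 105, 164 and 114 CPM in wild-type and 37.5, 36.6 and 55.8 CPM in albino eyes, and 273 to 347 CPM in wild-type and 362 to 619 CPM in albino liver (interaction -2.27 ± 0.36, adjusted p = 0.00705). LOC141103772 had an interaction of -3.00 ± 0.49 (adjusted p = 0.00848), and how reads were shared between these similar copies is not given. The L-threonine ammonia-lyase-like gene LOC141106231 had 1 count over wild-type liver and 29 over albino liver, a ratio of 35.5 (5.89 to 1450), with 51.3 to 69.4 CPM over all eye libraries. Terms share members, so their shares are not independent of each other, and 30 of the 168 terms had 0 called genes.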

How the data were processed

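Per the submitters' processing notes, HISAT2 and HTSeq were used, without versions. Not given in the sources used here: genome build, strandedness and the treatment of multi-mapped reads. The count columns, as deposited, hold whole numbers that the authors did not normalize. The deposited FPKM values follow from the counts and a single length per gene, and served only in an alternative. Gene names come from RefSeq (assembly ASM4218655v1), in which each of the 24636 identifiers was found.

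Counts of the 12 libraries were fitted in R 4.3.3 with edgeR 4.0.16: filterByExpr by group, TMM scaling, and the robust quasi-likelihood test (glmQLFit, glmQLFTest) on 4 group means, with Benjamini-Hochberg adjustment over 19128 tested genes at 0.05. CPM of single genes use TMM-scaled library sizes over the 12 libraries, and marker sums, GNAT1, APOB, FGB and CKM use library totals. Lists and pathway terms are described by counts and medians. Lists hold no gene whose product is only described as being like another. The members, lists and naming rule were chosen with earlier results of these data known. The rule named the 10 called genes of each sign with the smallest p (interaction of at least 1 on the log2 scale, at least 1 CPM in the highest group), up to 15 opposite genes, up to 3 called genes per list, 16 pigment and redox genes, and up to 3 called genes of the leading pathway terms. The remaining opposite genes and called members of 6 lists were added after their values were seen. No replicate pair agreed within sampling noise; wild-type liver 2 and 3 were the most alike. Equal numbers were not treated as pairs, since wild-type 3 of eyes and liver had a residual correlation of 0.0718, under the 0.1 asked for. The code was tested on simulated data. Alternatives were RLE and library-total scaling, TMM within each tissue, 2 other count filters, DESeq2 1.42.0, limma 3.58.1 on log2 FPKM plus 1 or 0.1, a replicate block, 1 fit of all 18 libraries, wild-type liver 2 and 3 summed, each tissue alone, and leaving out each library. The crystallin covariate and totals without crystallin genes were added after seeing the data. Skin libraries were otherwise not used here, and a few genes are not reported here.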

Additional observations from a re-analysis of the deposited data

Results flagged for a closer look

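The 654 genes with a called interaction, and among them the 37 called in opposite directions, stand out because the test of the difference between tissues itself passed. For the 15 opposite genes with the smallest interaction p, the size of that difference (albino minus wild-type in eyes, minus the same in liver, on the log2 scale) was as follows. Genes that were higher in albino eyes and lower in albino liver were CSRP2 with an interaction of 3.20, the sulfotransferase 1B1-like gene LOC141148488 with 3.07, PFKFB3 with 3.06, BMAL1 with 2.91, the cytochrome P450 2C8-like gene LOC141107723 with 2.36 and SMOX with 2.04. Genes that were lower in albino eyes and higher in albino liver were the ferritin heavy chain B-like gene LOC141110980 with -5.15, LAMA1 with -3.27, FOXO6 with -2.94, GASK1B with -2.80, PDGFRA with -2.32, the cytochrome b5 reductase 2 gene LOC141112957 with -2.14, CCN2 with -1.75 and the ENC1-like gene LOC141106018 with -1.63. NRTN had -5.47, a fitted value that rests on 2 counts over wild-type liver and depends on the prior count. The 37 genes were selected by these same libraries, and no further eye or liver libraries were analysed here.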

How the results depend on the processing

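The signs of the 37 opposite genes stayed the same in every alternative fit of both tissues that tested them. Selection by these same libraries left those signs little room to turn. Of 116 named genes with a called interaction, 75 kept the call whichever single library was left out, 25 lost it with wild-type liver 2 and 3 summed as 1 sample, and 101 lost it with the crystallin covariate. In what follows, counts are of called genes for the interaction, eyes, liver and opposite genes in that order, beside 654, 1309, 1597 and 37. Library totals gave 1816, 1912, 1969 and 68. DESeq2 gave 1704, 2894, 2737 and 111. With limma the counts were 3738, 4849, 1662 and 121 on log2(FPKM + 1), and 3101, 3495, 2065 and 123 on log2(FPKM + 0.1), with 86.1% and 86.2% of the interactions positive. All 18 libraries in 1 fit gave 407, 764, 1097 and 16, wild-type liver 2 and 3 summed gave 334, 1063, 786 and 12, and the crystallin covariate gave 22, 72, 1384 and 2. Each tissue fitted alone gave 1995 in eyes, 864 in liver and 22 opposite. The other scalings and count filters moved no count by more than 1.5 times. Leaving out each library in turn gave 270 to 887 interactions, 525 to 1570 in eyes, 756 to 1943 in liver and 10 to 50 opposite genes. The lowest came without wild-type liver 2 or, in eyes, without albino eyes 1, and the highest without albino liver 1.

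On log2 FPKM the sign of the interaction turned for MLANA, to 0.82 (adjusted p = 0.00475) with 1 added and 0.65 (adjusted p = 0.0481) with 0.1 added, from -2.85. With 1 added it also turned for ST6GALNAC6 (0.065), LOC141106231 (0.35), COL8A1 (0.18) and COL9A2 (-0.41), none of them called there (adjusted p of 0.190 to 0.868). The cause was not tested. Replicate numbers entered 2 separate fits, and the labels state neither pairing. With eyes and liver of the same genotype and number as a block, 497 interactions were called, 405 of them among the 654. With replicate terms within each tissue, shared by both genotypes, 914 genes were called in eyes and 1069 in liver. The 25 opposite genes combine the calls of both fits. Same-numbered eye and liver libraries had residual correlations of 0.338, 0.238 and 0.0718 in wild-type and 0.283, 0.200 and 0.182 in albino frogs. Wild-type liver 3 correlated best with wild-type eyes 2 (0.196), and every other library with its own number. Genes at a few counts in 1 tissue limit what their interactions can show: 167 of the 654 had a mean under 1 CPM in at least 1 tissue.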

Other observations

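Transcripts of oxidative drug metabolism, in which cytochrome P450 enzymes oxidise foreign compounds and POR hands them electrons, were called in both directions. POR stood at 512, 588 and 482 CPM in wild-type liver and 306, 282 and 327 CPM in albino liver (-0.79 ± 0.15, adjusted p = 0.00755), and at 52.2 to 59.7 CPM in wild-type and 59.2 to 66.2 CPM in albino eyes. Its interaction of 0.99 ± 0.21 (edgeR's quasi-likelihood test, adjusted p = 0.0258) was called in 5 of the 12 fits that left out 1 library. CYP1A1, the P450 that AHR switches on, had 453 to 1074 CPM in all liver libraries and no called difference there, although AHR itself rose in albino liver. In eyes it was lower in albino (-2.32 ± 0.45), at a level of at most 0.342 CPM in any library. Among 33 tested genes of complement and coagulation, F2 and C8G were called. F2, the precursor of thrombin, was at 0 to 0.114 CPM in wild-type eyes and 0.438 to 2.65 CPM in albino eyes, against 3474 to 5078 CPM in liver, and kept its call in 7 of the 12 fits. C8G had 8 counts over wild-type eyes and 0 over albino eyes, and kept its call in 3.

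Several enzymes of lipid and amino acid handling were called through their liver difference. CHPT1, which makes phosphatidylcholine, went from 188, 210 and 196 CPM to 106, 90.2 and 68.8 CPM in liver, with 13.4 to 15.4 CPM in all eye libraries (interaction 1.10 ± 0.22, adjusted p = 0.0217). PLD1, which cuts phosphatidylcholine, rose in liver from 13.5 to 22.1 CPM to 40.4 to 44.5 CPM (interaction -1.13 ± 0.24, adjusted p = 0.0285). KYAT1, a kynurenine aminotransferase, and PCYOX1, prenylcysteine oxidase, differed by -1.21 ± 0.25 and -0.82 ± 0.19 in liver. The calls of CHPT1, PLD1, KYAT1 and PCYOX1 were kept in 9, 3, 2 and 4 of the 12 fits. PPL, a plakin that links keratin filaments to cell junctions, went from 12.5, 30.9 and 24.3 CPM to 7.53, 7.47 and 12.3 CPM in eyes and stood at 1.20 ± 0.35 in liver (interaction -2.51 ± 0.49, adjusted p = 0.0194), a call kept in 8 of the 12 fits (adjusted p up to 0.0613). SPTB, the beta spectrin of erythrocytes, stood at 0.90 ± 0.32 in liver, and its call was kept in 2 of the 12 fits. Of the 17 erythrocyte markers, 16 had a negative interaction, beside 10182 of all 19128 tested genes. The 33 tested genes of the heat shock and unfolded protein response, the 19 iridophore and xanthophore pigment genes and the 19 macrophage and granulocyte markers had 0 called interactions by edgeR, with medians of -0.01, -0.08 and 0.04. At an unadjusted p under 0.05 there were 6, 6 and 2 genes, and DESeq2 called 4, 4 and 0.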
